A study of Arabidopsis thaliana with 21 samples.

Results

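The net change across radicle emergence in Arabidopsis thaliana was described by setting the arrays titled RH, from germinated seeds that had begun to form root hairs, against those titled TR, from seeds whose testa had ruptured. Each stage had 3 arrays, so 6 of the 21 arrays of the series were compared, and RH minus TR was computed for 27789 loci. The other stages of the series were dry seed (DS), 6 h of imbibition (6H), protrusion of the radicle (RP, between TR and RH), greening cotyledons (GC) and opened cotyledons (OC). The RH and TR seeds were both of cultivar Col-0, untransformed as far as the labels say, and shared their handling, which was 72 h at 4 °C on wet filter paper and then constant white light at 22 °C. For each stage 3000 seeds were picked under a stereomicroscope. A replicate was a pool of seeds harvested in bulk from several plants, so a p-value below measures the spread between such pools.

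Germination ends when the radicle breaks through the endosperm, the living layer that encloses the embryo. The testa, the dead outer coat, splits before that. After emergence the epidermis of the young root forms tubular outgrowths, the root hairs, which take up water and ions and grow at their tips by local secretion of wall material. The embryo's programme of storage and desiccation tolerance is closed down before and during this time, and the plastids of the cotyledons begin to become chloroplasts. All values below are levels, or differences between levels, on a log2 scale of array signal, so a difference of 1 stands for a 2-fold change in signal. Whole seeds or seedlings were ground, and in such bulk samples fewer cells of a type and less RNA per cell cannot be told apart.

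Replicate arrays of a stage correlated across genes with r between 0.991 and 0.995, and RH arrays with TR arrays with r between 0.927 and 0.931. The medians of the arrays lay between 5.14 and 5.24 at RH and between 5.09 and 5.24 at TR. A value under 3.47, the 30th percentile of the table, was treated as lying near the floor, where the signal hardly follows the amount of RNA, so a difference that starts or ends there is likely to understate the change. None of the 9 genes often used as references was called, and they lay between -0.4 (CBP20) and 0.39 (GAPC2). With 3 arrays a stage the precision of every value is limited by their number.

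A gene was called when limma gave an adjusted p under 0.05 and the difference was at least 1. By this rule 3432 genes differed (12.4% of those tested), of which 2065 were higher at RH (7.43%) and 1367 were lower (4.92%). Rises were larger than falls. A difference of at least 3 was reached by 256 of the genes called higher and by 56 of those called lower, and a difference of at least 5 by 46 and by 1. At the adjusted p alone 11578 genes passed (41.7%), 5208 higher (18.7%) and 6370 lower (22.9%). The median over all genes was -0.02. RMA gives all arrays a common distribution of values, so small differences and their balance are relative to that scaling. In 2063 of the 2065 genes called higher, all 3 RH arrays lay above all 3 TR arrays, and in 1365 of the 1367 called lower they lay below. Over all genes the arrays did not overlap in 24.1% with RH above and in 29.6% with RH below. The TR level was near the floor in 715 of the genes called higher (34.6%), and the RH level in 191 of those called lower.

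Most genes called higher reached their peak after RH. Among the 7 stages the mean level of these genes was highest at OC for 1107, at GC for 497 and at RH itself for 327, and for 120 it was highest in dry seed. Those called lower had their highest level at 6H in 718 cases, at TR in 294 and in dry seed in 267. A gene called higher cannot peak at TR, nor one called lower at RH, and peak stages over all genes were not counted.

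**Figure D1:**
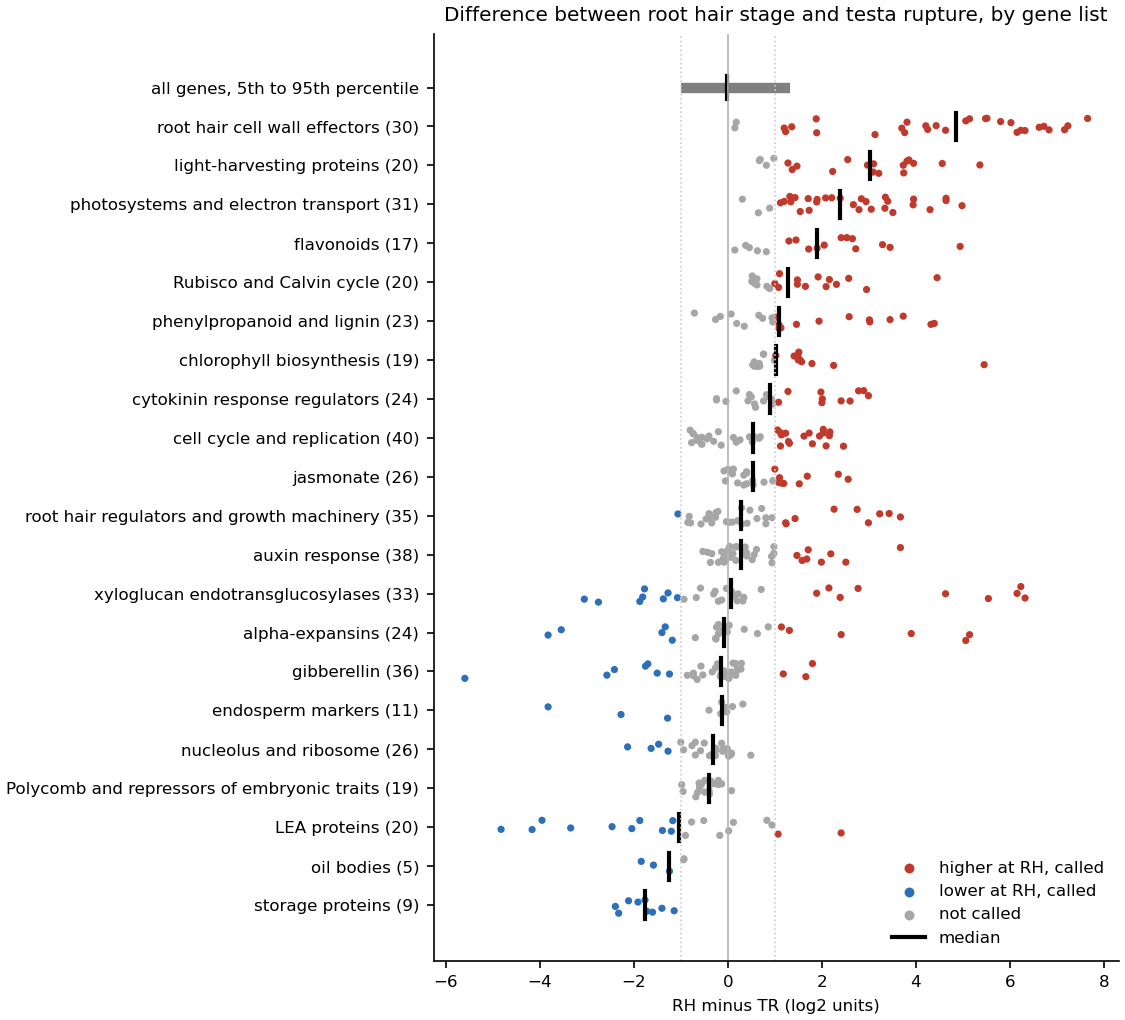
Difference RH minus TR (log2 units, horizontal axis) of each measured member of 21 gene lists, with the number of members in brackets. Points stand for genes, red where called higher at RH, blue where called lower and grey where not called, and black bars are medians. The grey bar at the top spans the 5th to the 95th percentile of all genes. The root hair list lies farthest to the right, with a median of 4.85, and the storage protein list farthest to the left, with a median of -1.76.

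Genes that build the root hair wall held 7 of the 15 largest rises and 15 of the 46 rises of at least 5. Of 30 genes in a list of root hair cell wall effectors, 28 were higher at RH, none was lower, and the median difference was 4.85. At TR 24 of the 30 were near the floor, so their rises may be larger than the values given. RHS19 (AT5G67400), which encodes a peroxidase made in root hairs, stood at 10.48, 10.39 and 10.51 on the RH arrays, against 2.76, 2.76 and 2.92 on the TR arrays. Its difference of 7.65 ± 0.17 (SE, adjusted p = 5.3e-17) was the largest of all genes. The extensin genes followed, whose products are hydroxyproline-rich proteins that cross-link in the wall. EXT6 (AT2G24980) had 9.43, 9.35 and 9.52 at RH and 2.25, 1.98 and 2.38 at TR, a difference of 7.23 ± 0.26 (adjusted p = 2.5e-14). Among 9 extensin-family genes 7 were higher at RH and 1 was lower. Differences of 6.91 and 6.62 were found for EXT10 (AT5G06640) and EXT12 (AT4G13390), and 6.72 for LRX1 (AT1G12040), a leucine-rich repeat extensin needed for normal hair shape. LRX3 (AT4G13340), a related gene of other tissues, was lower at RH by this rule, with 7.84, 7.74 and 7.66 against 8.73, 8.67 and 8.87 at TR (-1.01 ± 0.13, adjusted p = 2.1e-06). That call was lost without RH replicate 3 (-0.97) or TR replicate 3 (-0.95), with arrays centred on the reference genes (-0.99), and under further quantile normalization (-0.95). The extensins carry repeats that resemble each other, so their probe sets may share signal, which was not tested.

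Other wall proteins rose with them. PRP1 (AT1G54970), a proline-rich protein, had 9.88, 9.76 and 9.8 at RH and 2.63, 2.59 and 2.73 at TR (7.16 ± 0.17, adjusted p = 1.2e-16). RHS13 (AT4G02270) rose by 6.83, and MOP10 (AT5G05500), also known as PRPL1, a proline-rich protein of elongating hairs, by 6.46. LAC7 (AT3G09220), a laccase that oxidises phenolics in the wall, had 10.11, 10.27 and 10.32 at RH and 3.18, 2.94 and 2.99 at TR (7.19 ± 0.22, adjusted p = 1.5e-15). Arabinogalactan proteins coat the outer face of the plasma membrane, and 10 of 50 genes of this family and the fasciclin-like proteins rose. AGP3 (AT4G40090) and FLA6 (AT2G20520) led them with 5.51 and 5.52, and AGP10 (AT4G09030) fell by 1.85. The germin-like gene GER3 (AT5G20630) rose by 6.83. Of the 15 largest rises 4 were loci with no symbol in the reference table, AT3G54580, AT5G06630, AT5G57625 and AT1G23720, at 7.46, 7.24, 7.22 and 6.57. In the root hair list SHV3 (AT4G26690) and LRX2 (AT1G62440) were not called, at 0.18 ± 0.14 (adjusted p = 0.32) and 0.15 ± 0.25 (adjusted p = 0.7).

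The regulators of root hairs moved far less than the wall genes, with 9 of 35 higher, 1 lower and a median of 0.29. They act in sequence in the root epidermis. Cell fate is set by a group of transcription factors and a receptor-like kinase, then bHLH (basic helix-loop-helix) factors start the hair, and a signalling and secretion machinery drives its growth. These groups by role were formed after the values were seen. None of the 7 cell fate genes was higher at RH, and SUB (AT1G11130, also called SCRAMBLED), the receptor-like kinase, was lower, with 6.08, 5.77 and 5.71 against 6.87, 7.04 and 6.84 at TR (-1.06 ± 0.16, adjusted p = 2.1e-05). Its difference was -0.99 without RH replicate 3 and -1.0 without TR replicate 2, both just short of the threshold. The median of the 7 was -0.57. CPC (AT2G46410), which promotes hair fate, differed by -0.46 ± 0.15 (adjusted p = 0.018) and GL2 (AT1G79840), which opposes it, by -0.26 ± 0.15 (adjusted p = 0.19).

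Of the 7 bHLH genes 2 rose. RSL4 (AT1G27740), which sets hair length, had 6.63, 6.27 and 6.7 at RH and 2.85, 3.11 and 2.64 at TR (3.67 ± 0.2, adjusted p = 1.6e-11). LRL3 (AT5G58010) had 6.58, 6.27 and 6.76 against 3.19, 3.12 and 2.98 (3.43 ± 0.16, adjusted p = 1.3e-12). The arrays of both stages stood well apart for both genes. RHD6 (AT1G66470) and RSL1 (AT5G37800), which act before RSL4, were already measurable at TR. RHD6 had 5.8, 5.7 and 5.78 at RH and 5.68, 6.12 and 6.51 at TR, which overlapped (-0.34 ± 0.22, adjusted p = 0.23), and RSL1 differed by -0.85 ± 0.27 (adjusted p = 0.016). In the growth machinery RHD2 (AT5G51060), the NADPH oxidase that produces reactive oxygen at the hair tip, rose by 2.99 and COW1 (AT4G34580), a phosphatidylinositol transfer protein, by 2.75. AT5G61350 (ERULUS), a receptor-like kinase of hair growth, had 6.31, 6.19 and 6.35 at RH and 3.26, 3.28 and 2.63 at TR, a difference of 3.23. PIP5K3 (AT2G26420), a phosphoinositide kinase, rose by 2.26 and ROPGEF3 (AT4G00460), an activator of the small GTPases that mark the site of outgrowth, by 1.43.

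**Figure D2:**
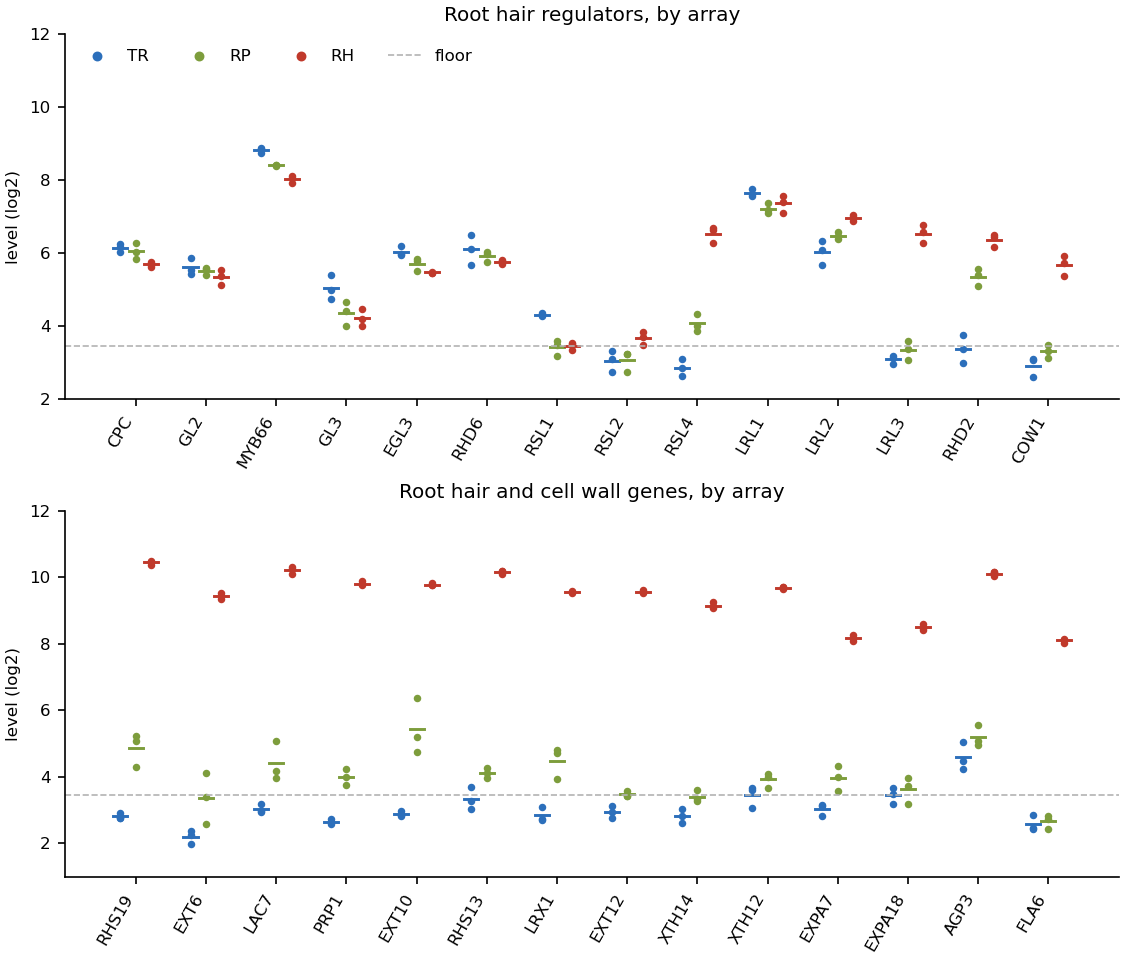
Levels (log2) on each of the 3 arrays of TR, RP and RH for 14 genes that regulate root hairs or drive their growth (upper panel) and for 14 wall genes that rose (lower panel). Points are arrays, short lines their means, and the dashed line is the floor of 3.47. All 14 wall genes lie above 8 at RH, and in the upper panel RSL4, LRL3, RHD2 and COW1 stand apart from the genes of cell fate.

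In the root hair wall list the step from RP to RH was larger in signal than the step from TR to RP. The median of the 30 wall effectors was 0.44 for RP minus TR and 4.4 for RH minus RP. Of the 30, 6 were called higher at RP than at TR (2.34% of all genes) and 27 higher at RH than at RP (3.65% of all genes). The RP level lay below the mean of TR and RH, by the same rule for a call, in 22 of them (0.637% of all genes). With 24 of the 30 near the floor at TR and a median RP level of 3.62, the floor may understate the step to RP more than the step from RP, which favours a low RP level in this contrast. LAC7, RSL4 and RHD2, all near the floor at TR, share that limit. LAC7, for example, averaged 3.03 at TR, 4.41 at RP and 10.23 at RH, a departure of -2.22 ± 0.19 from that mean (adjusted p = 1.9e-07). For RSL4 the stage means were 2.87 at TR, 4.08 at RP and 6.53 at RH, a departure of -0.62 ± 0.18 (adjusted p = 0.048) that fell short of the size for a call. RHD2 averaged 3.38 at TR, 5.35 at RP and 6.37 at RH, and its departure of 0.48 ± 0.17 did not pass the test (adjusted p = 0.13). The departure tests whether the step to RP and the step from RP differ in size. Both steps share the RP arrays, and each shares a group with the net comparison.

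Wall-loosening families changed in both directions. Expansins loosen the bonds between wall polymers, and XTH enzymes cut and rejoin xyloglucan, the chain that ties cellulose fibrils together. Of 24 alpha-expansins 6 were higher at RH and 5 lower, with a median of -0.08, and of 33 XTH genes 9 were higher and 8 lower, with a median of 0.07 that was -0.08 without TR replicate 2. The genes that rose were near the floor at TR in several cases. EXPA7 (AT1G12560), an expansin of root hairs, had 8.17, 8.09 and 8.27 at RH and 2.83, 3.17 and 3.13 at TR (5.14 ± 0.18, adjusted p = 2e-14). EXPA18 (AT1G62980), its close relative, rose by 5.06 and EXPA12 (AT3G15370) by 3.9. Among the falls, EXPA2 (AT5G05290), an expansin of the endosperm in germinating seed, had 6.11, 6.63 and 6.89 at RH and 10.46, 10.2 and 10.44 at TR (-3.82 ± 0.35, adjusted p = 2.4e-08). EXPA8 (AT2G40610) had 5.36, 5.69 and 5.41 against 8.85, 9.14 and 9.08 (-3.54 ± 0.17, adjusted p = 1.7e-12), and EXPA10 (AT1G26770) fell by 1.4.

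The XTH family was divided in the same manner. XTH14 (AT4G25820), XTH12 (AT5G57530) and XTH13 (AT5G57540) rose by 6.32, 6.23 and 6.15. For XTH12 the RH arrays read 9.71, 9.7 and 9.64, against 3.62, 3.67 and 3.07 at TR. XTH15 (AT4G14130) fell by 3.05, with 5.96, 5.88 and 6.29 at RH and 9.29, 8.87 and 9.13 at TR, and XTH33 (AT1G10550) by 2.75. The touch-induced TCH4 (AT5G57560) was not called at -0.93 ± 0.2 (adjusted p = 0.00097). Across both families the sum of the counts was 15 genes higher and 13 lower, and both directions lay above the 7.43% and 4.92% of all genes.

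**Figure D3:**
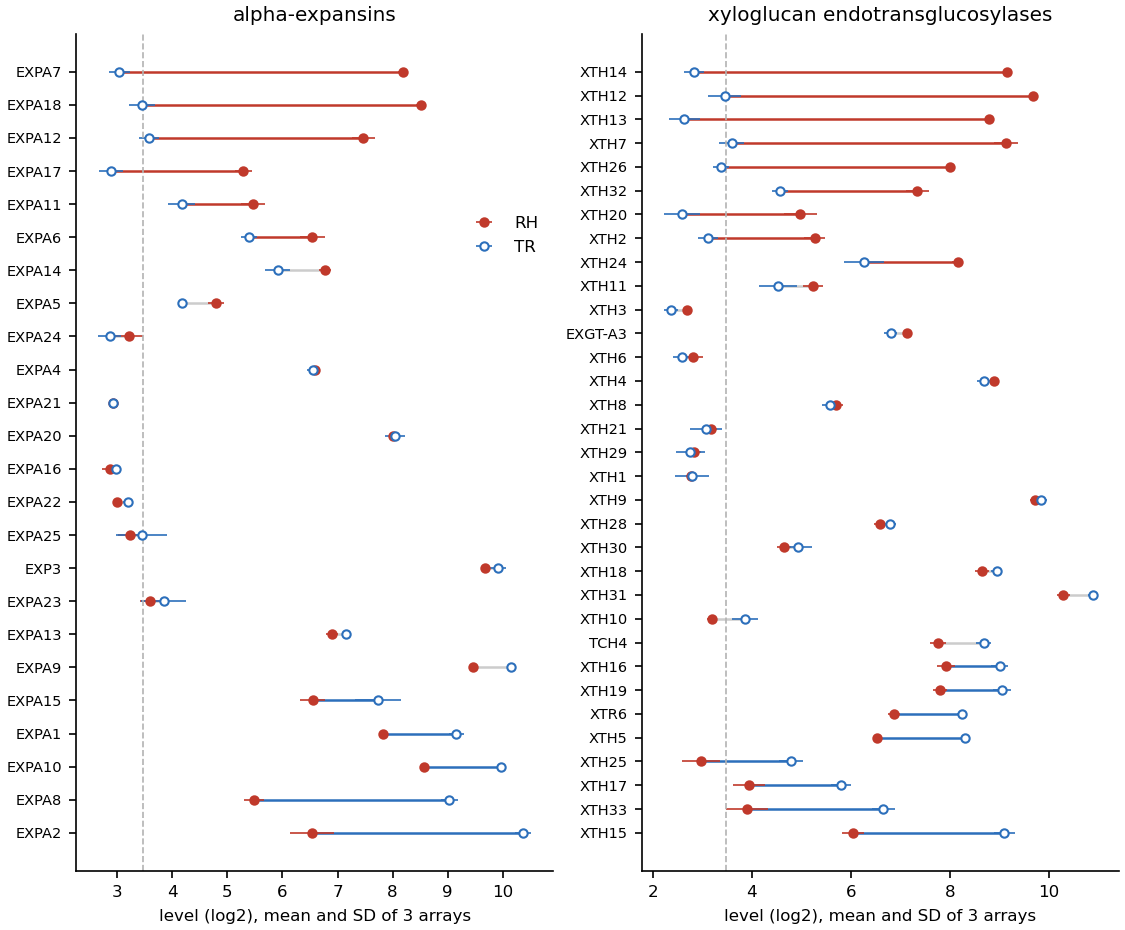
Mean level (log2) of each of 24 alpha-expansins (left) and 33 XTH genes (right) at RH (filled red) and TR (open blue), with the SD of 3 arrays as bars, ordered from the largest rise to the largest fall. Connecting lines are red where the gene was called higher at RH, blue where called lower and grey otherwise, and the dashed line is the floor of 3.47. EXPA7 and XTH12, near the top, have TR means under 4, and EXPA2 and XTH15, at or near the bottom, lie above 9 at TR.

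Vacuolar processing enzymes are proteases that mature or break down vacuolar proteins, and of 8 genes for these and for other seed proteases 2 were higher and 2 lower. BETA-VPE (AT1G62710), the seed form that processes storage proteins, had 4.68, 5.29 and 4.9 at RH and 9.1, 9.12 and 9.14 at TR (-4.17 ± 0.14, adjusted p = 6.8e-15). GAMMA-VPE (AT4G32940), a form of vegetative organs, had 9.0, 9.08 and 9.15 against 6.75, 7.0 and 7.15 (2.11 ± 0.13, adjusted p = 5.5e-11). ALPHA-VPE (AT2G25940) rose by 1.47 and DELTA-VPE (AT3G20210), known from the seed coat, fell by 1.9. Of 25 starch genes 3 were higher and 1 was lower. The counts of each list in this paragraph stand beside 7.43% higher and 4.92% lower over all genes. Among the large subunits of ADP-glucose pyrophosphorylase, which makes the precursor of starch, APL1 (AT5G19220) rose by 3.28 and APL2 (AT1G27680) fell by 1.61. Of 16 auxin transport genes 2 were higher and 1 was lower (12.5% and 6.25%). The auxin influx carrier gene LAX3 (AT1G77690) rose by 2.79 and LAX2 (AT2G21050) fell by 1.3. The list of sugar transport and raffinose had 6 of 41 genes higher and 3 lower (14.6% and 7.32%). In the starch, auxin transport and sugar lists the share called lower was thus near that of all genes. The exporters SWEET12 (AT5G23660) and SWEET11 (AT3G48740) rose by 3.38 and 3.23, and the sucrose carrier gene SUT4 (AT1G09960) fell by 2.22 and SWEET1 (AT1G21460) by 1.06. The difference of SWEET1 was -1.0, just short of the threshold, without RH replicate 2. AGAL2 (AT5G08370), an alpha-galactosidase, fell by 2.97.

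Of the water channels, the tonoplast list had 4 of 10 genes higher with a median of 0.31, and the plasma membrane list 4 of 13 with a median of 0.56. Neither had a gene called lower, and the other 6 and 9 genes were not called. TIP2 (AT3G26520) had 8.63, 8.69 and 8.71 at RH and 3.94, 4.39 and 4.41 at TR (4.43 ± 0.16, adjusted p = 2e-14). TIP4;1 (AT2G25810) rose by 3.99, and in the plasma membrane PIP2E (AT2G39010) rose by 1.71 and PIP2;4 (AT5G60660) by 1.69. BETA-TIP (AT1G17810), a channel of the seed's storage vacuole, was near the floor at both stages, at -0.43 ± 0.31 (adjusted p = 0.3).

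Phenylpropanoid enzymes, which turn phenylalanine into precursors of lignin and flavonoids, rose in 13 of 23 cases with none lower and a median of 1.09. PAL1 (AT2G37040), for the first step of the pathway, had 8.31, 8.28 and 8.2 at RH and 3.66, 3.8 and 4.15 at TR (4.39 ± 0.16, adjusted p = 2e-14). The ligase gene 4CL2 (AT3G21240) rose by 4.32 and CCoAOMT1 (AT4G34050), a methyltransferase of lignin precursors, by 3.73. C4H (AT2G30490), for the second enzyme, was already at 8.22, 8.15 and 8.37 at TR and stayed short of the threshold at 0.96 ± 0.1 (adjusted p = 3e-07).

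Flavonoid genes rose in 12 of 17 cases, none was lower, and the median was 1.9. The largest rises were in the branch that makes anthocyanins, the red pigments of young seedlings. LDOX (AT4G22880) had 8.23, 8.0 and 7.55 at RH and 2.96, 2.84 and 3.16 at TR (4.94 ± 0.24, adjusted p = 1.7e-12). DFR (AT5G42800) had 6.78, 6.36 and 5.99 against 3.13, 2.93 and 3.2 (3.29 ± 0.19, adjusted p = 2.9e-11). On the RH arrays these 2 genes were highest on replicate 1 and lowest on replicate 3. Every RH array was above every TR array, as in 24.1% of all genes. GSTF12 (AT5G17220), needed to store anthocyanin in the vacuole, rose by 3.45, and PAP1 (AT1G56650, MYB75), the MYB factor that switches the branch on, by 2.65. F3H (AT3G51240), an earlier enzyme shared with flavonols, had 0.63 ± 0.15 (adjusted p = 0.0026). The list's median was 0.26 between TR and RP and 1.38 between RP and RH.

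Photosynthesis genes were also among the rises. Light-harvesting proteins, which bind chlorophyll around the photosystems, were higher in 16 of 20 cases with a median of 3.03. CAB1 (AT1G29930) had 10.83, 10.82 and 10.68 at RH and 5.65, 6.54 and 6.46 at TR (4.56 ± 0.25, adjusted p = 1.8e-11). LHCB2.2 (AT2G05070) had 8.4, 8.47 and 8.66 against 3.01, 3.21 and 3.23 (5.36 ± 0.22, adjusted p = 2.3e-13). CAB1 and CAB3 (AT1G29910) are near-identical genes whose probe sets may share signal. The median over the list was 1.38 for RP minus TR and 1.48 for RH minus RP. In the first step 14 of the 20 were called higher and in the second 13, and none was called below the mean of TR and RH at RP. LHCA1 (AT3G54890) was not called, at 0.82 ± 0.34 (adjusted p = 0.061), with levels of 3.9, 3.94 and 4.84 at RH and 3.56, 2.77 and 3.87 at TR. Its TR mean of 3.4 was near the floor, so its difference may be understated. Its signal was also low at GC and OC, with means of 4.53 and 5.01.

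Photosystem and electron transport genes were higher in 28 of 31 cases with none lower and a median of 2.39. Of the 31, 21 were called higher in the step to RP and 14 in the step from RP, and none was called below the mean of TR and RH at RP. PSBQ-2 (AT4G05180), of the oxygen-evolving complex, rose by 4.98, PSAK (AT1G30380), of photosystem I, by 4.64 and PETE1 (AT1G76100), a plastocyanin, by 4.64. PETE1 had 9.14, 9.03 and 9.08 at RH and 4.1, 4.92 and 4.32 at TR. Of 20 genes of Rubisco and the Calvin cycle 13 were higher, with a median of 1.29. CA2 (AT5G14740), a carbonic anhydrase that the list includes though it is no enzyme of the cycle, led with 4.45. It was followed by CP12-2 (AT3G62410) at 2.95 and phosphoribulokinase, PRK (AT1G32060), at 2.57. The Rubisco small subunit gene RBCS2B (AT5G38420), already at 9.2, 9.22 and 9.51 at TR, had 0.89 ± 0.26 (adjusted p = 0.0088).

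Chlorophyll synthesis rose in 10 of 19 cases, beside 7.43% of all genes. All 19 genes were higher at the adjusted p alone, beside 18.7% of all genes. PORA (AT5G54190), a protochlorophyllide oxidoreductase best known from dark-grown seedlings, stood apart, with 8.52, 8.51 and 8.23 at RH and 2.93, 2.9 and 3.09 at TR (5.45 ± 0.13, adjusted p = 5.4e-17). GUN5 (AT5G13630), a subunit of magnesium chelatase, came next at 2.25, and POR C (AT1G03630) was at 0.99 ± 0.16 (adjusted p = 5.4e-05). Loci encoded in the organelles were counted beside the 7.43% higher and 4.92% lower of all genes. Of 94 plastid loci 1 was higher and none lower, with a median of 0.38. Mitochondrial loci had a median of -0.31 over 100 loci, with none higher and 5 lower. The share of mitochondrial loci called lower was near that of all genes. Plastid and mitochondrial loci were 9 of the 10 loci with the highest array signal at RH, which does not rank the amounts of RNA. ATCG00490 had 12.34, 12.28 and 12.31 at RH and 11.91, 11.85 and 11.9 at TR (0.43 ± 0.08, adjusted p = 0.00035), close to the top of the scale, where arrays can saturate. The nuclear gene in that set was PYK10 (AT3G09260), a beta-glucosidase of root ER bodies, at 12.17, 12.24 and 12.24 against 11.83, 11.82 and 11.94.

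Of 24 genes of nitrogen and sulfur assimilation 4 were higher and 2 lower (16.7% and 8.33%, beside 7.43% and 4.92% of all genes). GLU1 (AT5G04140), the ferredoxin-dependent glutamate synthase, had 8.83, 8.56 and 8.58 at RH and 4.12, 4.87 and 4.7 at TR (4.09 ± 0.19, adjusted p = 8.9e-13), and the plastid glutamine synthetase gene GS2 (AT5G35630) rose by 3.3. Nitrate reductase NIA1 (AT1G77760) and nitrite reductase NIR1 (AT2G15620), which feed ammonium into that cycle, fell by 1.51 and 1.24.

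Of 40 genes of the cell cycle and replication 17 were higher and none was lower at the threshold. They were grouped by phase after their values were seen, so the groups are a description, and the difference between them was not tested. The 19 genes of mitosis and cytokinesis held 15 of the rises and had a median of 1.62. TPX2 (AT1G03780), a spindle assembly factor, had 6.39, 5.95 and 6.19 at RH and 3.49, 3.94 and 3.74 at TR (2.46 ± 0.14, adjusted p = 2.2e-11). The kinesin gene HIK (AT1G18370), needed to build the cell plate, rose by 2.17 and the cyclin gene CYCA1;1 (AT1G44110) by 2.16. The 13 DNA replication genes had none called and a median of -0.55. At the adjusted p alone 8 of them were lower, beside 22.9% of all genes. MCM6 (AT5G44635), of the replicative helicase, had 6.48, 6.18 and 6.17 against 7.15, 7.03 and 7.05 (-0.8 ± 0.17, adjusted p = 0.00084). Its arrays did not overlap between the stages, as was the case with RH below in 29.6% of all genes. The nucleolus and ribosome list had 4 of 26 genes lower (15.4%, beside 4.92% of all genes), none higher and a median of -0.31. Its largest fall was RPL3B (AT1G61580), a ribosomal protein gene, at -2.13, followed by PUM24 (AT3G16810) at -1.63 and the box C/D protein gene NOP56 (AT1G56110) at -1.47. None of 15 tubulin genes was called.

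Gibberellin, the hormone that promotes germination, had 3 of 36 genes higher and 7 lower (8.33% and 19.4%). Over all genes the shares were 7.43% and 4.92%. GASA6 (AT1G74670), a gibberellin-responsive peptide gene, showed the largest fall of all genes, with 4.19, 4.13 and 3.79 at RH and 9.81, 9.5 and 9.58 at TR (-5.59 ± 0.19, adjusted p = 1.3e-14). Both synthesis and repression of the pathway were among the falls. GA3OX2 (AT1G80340), for the enzyme that makes active gibberellin, fell by 1.5, with 8.66, 8.72 and 9.26 at RH and 10.4, 10.28 and 10.45 at TR. The DELLA genes RGL2 (AT3G03450), RGL3 (AT5G17490) and GAI (AT1G14920), whose products hold gibberellin responses back, fell by 2.57, 2.41 and 1.75. For RGL2 the arrays read 5.7, 6.11 and 6.2 at RH and 8.64, 8.42 and 8.67 at TR. The rises were the receptor gene GID1B (AT3G63010) at 1.8 and the genes of gibberellin-inactivating enzymes GA2OX2 (AT1G30040) at 1.66 and GA2OX6 (AT1G02400) at 1.18.

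Abscisic acid, which acts against germination, had 2 of 33 genes higher and 4 lower (6.06% and 12.1%). Over all genes the shares were 7.43% and 4.92%. The receptor gene PYL2 (AT2G26040) and the phosphatase gene HAI3 (AT2G29380) each fell by 2.04, and PP2CA (AT3G11410) fell by 1.61. CYP707A1 (AT4G19230), which breaks the hormone down, rose by 1.31. Among 12 regulators of maturation and dormancy 4 were lower and none higher. ABI3 (AT3G24650), a master regulator of seed maturation, had 3.84, 3.95 and 4.2 at RH and 8.74, 8.68 and 8.66 at TR (-4.7 ± 0.13, adjusted p = 8.3e-16). ABI4 (AT2G40220) fell by 2.69 and ABI5 (AT2G36270), which can arrest growth after germination, by 2.45. The arrays of the stages did not overlap for any of the 3, as was the case with RH below in 29.6% of all genes. DOG1 (AT5G45830), a dormancy gene, was near the floor at both stages, at 0.11 ± 0.15 (adjusted p = 0.64), and FUS3 (AT3G26790) had 0.83 ± 0.19 (adjusted p = 0.0016).

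Cytokinin genes rose in 10 of 24 cases with none lower and a median of 0.9. Type-A response regulators, which are switched on by cytokinin and dampen its signal, led the list. ARR3 (AT1G59940) had 7.08, 6.96 and 7.34 at RH and 4.07, 4.06 and 4.28 at TR (2.99 ± 0.16, adjusted p = 9.5e-12). RR16 (AT2G40670) and ARR7 (AT1G19050) rose by 2.89 and 2.78. Auxin response genes rose in 8 of 38 cases with none lower, all of them Aux/IAA genes, whose products repress auxin responses and are themselves induced by auxin. AXR3 (AT1G04250, IAA17) had 8.6, 8.63 and 8.44 against 4.89, 4.85 and 4.91 (3.67 ± 0.15, adjusted p = 1.1e-13), and IAA28 (AT5G25890) rose by 2.51. In auxin transport EIR1 (AT5G57090), the root efflux carrier PIN2, was at -0.75 ± 0.15 (adjusted p = 0.00037).

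Jasmonate genes rose in 9 of 26 cases with none lower, led by the synthesis genes AOC2 (AT3G25770) at 2.56 and AOS (AT5G42650) at 2.35. AOS read 8.03, 7.96 and 8.02 at RH and 5.19, 6.08 and 5.7 at TR. Of 22 ethylene genes 3 rose (13.6%, beside 7.43% of all genes) and none fell. Among those that rose were the synthesis genes EFE (AT1G05010, ACO4), for an oxidase, at 3.63 and ACS7 (AT4G26200) at 1.62. Brassinosteroid synthesis had the single call DWF4 (AT3G50660), which fell by 1.11, among 14 genes of that hormone. Defence genes rose in 7 of 22 cases, with EDS1 (AT3G48090) at 1.81 and PAD4 (AT3G52430) at 1.65, 2 partners in resistance signalling.

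Transport of mineral nutrients had 8 of 58 genes higher and 5 lower, a share of 13.8% and 8.62%, beside 7.43% and 4.92% of all genes. PHT1;1 (AT5G43350), a phosphate uptake carrier of root hairs and epidermis, had 8.27, 8.56 and 8.5 at RH and 3.83, 3.78 and 4.42 at TR (4.43 ± 0.24, adjusted p = 1.1e-11). The zinc transporter gene ZIP3 (AT2G32270) rose by 4.06 and IRT2 (AT4G19680), an iron transporter gene of the root epidermis, by 3.48. On the falling side were NRT1.7 (AT1G69870), a nitrate carrier of the phloem, with 5.29, 5.17 and 5.26 against 8.13, 8.09 and 8.03 (-2.84 ± 0.15, adjusted p = 5.2e-12), AT3G62270 (BOR2), a boron exporter gene, at -1.91, and PHO1 (AT3G23430), which loads phosphate into the xylem, at -1.26.

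Lists for the endodermis and the vascular tissue held rises and falls, beside the 7.43% higher and 4.92% lower of all genes. The Casparian strip, a belt of lignin that seals the endodermis, had its scaffold genes CASP1 (AT2G36100) and CASP5 (AT5G15290) at 1.94 and 1.56. Of 25 genes of strip and suberin 5 were higher and 1 was lower (20.0% and 4.0%). Further quantile normalization left 3 genes higher. CASP1 had 5.86, 5.55 and 5.75 at RH and 3.95, 3.62 and 3.76 at TR. Among 26 vascular genes 5 rose and 1 fell (19.2% and 3.85%). PP2-A1 (AT4G19840), a phloem lectin, rose by 3.65, and the laccase gene IRX12 (AT2G38080), which polymerises lignin in xylem, by 3.25. The fall was SEOR1 (AT3G01680), a filament protein of sieve elements, with 3.68, 4.09 and 4.01 against 7.71, 7.58 and 7.55 (-3.69 ± 0.15, adjusted p = 1.5e-13). In the root meristem list UPB1 (AT2G47270), a factor that controls the balance of reactive oxygen between division and elongation, was the single call of 19 (5.26%), at 4.49.

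The seed programme was described by its storage proteins, oil bodies and LEA proteins. All 9 storage protein genes were lower at RH, with differences from -1.14 to -2.39 and a median of -1.76. The cruciferin gene CRU3 (AT4G28520) had 6.17, 5.83 and 5.55 at RH and 7.68, 8.1 and 8.1 at TR (-2.11 ± 0.37, adjusted p = 9.9e-05), and the albumin gene SESA2 (AT4G27150) had 3.48, 3.95 and 3.47 against 5.98, 6.14 and 5.93 (-2.39 ± 0.28, adjusted p = 7.9e-07). The falls after TR were shared between the steps to and from RP, with medians of -0.75 and -0.87. Before TR both CRU3 and SESA2 had fallen further. CRU3 averaged 12.26 in dry seed and 7.96 at TR, and SESA2 10.1 and 6.02. Of 5 oil body genes 3 were lower, among them the oleosin gene OLEO1 (AT4G25140) at -1.58. OLEO3 (AT5G51210) and OLEO2 (AT5G40420), which were not called, lay at -0.94 and -0.93, and all 5 were called without RH replicate 1 or TR replicate 1.

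LEA proteins, which protect drying cells, did not move as 1 group. Of 20 genes 10 were lower and 2 higher, with a median of -1.03. LEA18 (AT2G35300) had 4.34, 4.4 and 4.96 at RH and 9.21, 9.43 and 9.52 at TR (-4.82 ± 0.4, adjusted p = 7.9e-09). LEA4-5 (AT5G06760) and LEA7 (AT1G52690) fell by 4.16 and 3.95. The 2 that rose were the dehydrins LTI30 (AT3G50970), with 6.15, 6.19 and 5.96 against 3.37, 4.29 and 3.43 (2.41 ± 0.32, adjusted p = 4.4e-06), and ERD14 (AT1G76180) at 1.07, which was 0.91 and not called without TR replicate 2. Other large falls were AtLEA4-1 (AT1G32560) at -4.89, HVA22B (AT5G62490), of an abscisic acid-responsive family, at -4.73, the plastid envelope channel gene ATOEP16-2 (AT4G16160) at -4.62 and the lipase gene MPL1 (AT5G14180) at -4.06. Loci without a symbol made up 6 of the 15 largest falls, from AT1G27461 at -4.9 to AT5G50360 at -4.09. AT1G29080 kept its TR level through protrusion, at 9.54 at TR, 9.19 at RP and 4.71 at RH. It was low before TR, at 3.28 in dry seed and 4.23 at 6H.

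The breakdown of storage oil runs through beta-oxidation, the glyoxylate cycle and gluconeogenesis. Of 14 beta-oxidation genes 2 were called higher and none lower, and of 10 genes of the other two pathways 1 was called higher and none lower, beside the 12.4% called over all genes. At the adjusted p alone, which 41.7% of all genes passed, 3 beta-oxidation genes were higher and 5 lower, and 2 of the 10 were higher and 3 lower. KAT5 (AT5G48880), a thiolase gene, had 7.03, 6.91 and 6.68 against 4.17, 4.76 and 4.46 (2.41 ± 0.15, adjusted p = 1.4e-10). The isocitrate lyase gene ICL (AT3G21720) had a high signal at both stages, with 11.59, 11.64 and 11.63 at RH and 11.56, 11.5 and 11.57 at TR (0.08 ± 0.09, adjusted p = 0.55).

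Polycomb and other repressors of embryonic traits, which keep seed genes silent in seedlings, had none of 19 genes called and a median of -0.4. At the adjusted p alone 14 of them were lower, beside 22.9% of all genes. RING1A (AT5G44280) had 5.45, 5.08 and 5.18 at RH and 6.15, 6.19 and 6.3 at TR (-0.98 ± 0.16, adjusted p = 5.6e-05).

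Of 11 markers of the endosperm 3 were lower and none higher, and they were EXPA2, MAN7 (AT5G66460), an endo-beta-mannanase that softens the endosperm wall, at -2.27, and EPR1 (AT2G27380), an extensin-like gene of the endosperm around the radicle, at -1.28. MAN7 had 4.75, 5.61 and 5.66 at RH and 7.5, 7.72 and 7.62 at TR. EXPA2 and EPR1 had the highest TR means of the 11, at 10.37 and 9.72. The log2 of their summed signal lay between 9.44 and 9.64 at RH and between 11.27 and 11.47 at TR, and 7 of the 11 were near the floor at both stages, among them AGL62 and FIS2, markers of early endosperm. Their part in the falls of other genes was not tested. None of 11 seed coat markers was called, and their sums lay between 8.23 and 8.36 at RH and between 8.18 and 8.27 at TR. Of 14 pollen and flower markers none was called and 12 were near the floor at both stages.

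Of the transcription factor families, WRKY factors had 14 of 72 higher and none lower, and MYB factors had 19 of 132 higher and 3 lower, beside the 7.43% and 4.92% over all genes. WRKY49 (AT5G43290) had 5.42, 4.76 and 5.09 at RH and 2.82, 2.76 and 2.59 at TR (2.37 ± 0.17, adjusted p = 6.6e-10). NAC factors had 8 of 103 higher and 6 lower. NAC3 (AT3G15500) rose by 3.19, and NTL8 (AT2G27300), a membrane-bound factor that represses germination under salt, fell by 2.93. Among 13 HD-Zip class I genes HB20 (AT3G01220) and ATHB13 (AT1G69780) rose by 1.95 and 1.8, with ATHB13 at 6.32, 6.18 and 6.15 against 4.29, 4.26 and 4.7 (adjusted p = 6.1e-09). Cytochromes P450 had 31 of 239 genes higher and 16 lower, led by CYP82F1 (AT2G25160) at 3.54 and CYP705A5 (AT5G47990), of the thalianol pathway of root triterpenes, at 3.22. SAUR genes, small auxin-induced genes, had 8 of 79 higher and 9 lower, from AT5G66260 (SAUR11) at -3.71 to AT3G53250 (SAUR57) at 3.14. Of 115 defensin-like and cysteine-rich peptide genes 1 was higher and 2 were lower, and the rise was PDF2.5 (AT5G63660), a defensin, at 4.6. Of 39 CLE and RGF signalling peptide genes 1 was higher and 2 were lower (2.56% and 5.13%). CLE1 (AT1G73165) fell by 3.0, with 3.35, 3.4 and 4.08 at RH and 6.28, 6.74 and 6.81 at TR. The myrosinase genes BGLU35 (AT1G51470) and BGLU34 (AT1G47600), for enzymes that break down glucosinolates, rose by 4.4 ± 0.56 and 4.18 ± 0.41. Within the heat shock list HSP70 (AT3G12580) fell by 1.55 and HSP18.2 (AT5G59720) rose by 1.42.

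The net difference passes over radicle protrusion, so the course through RP was read from the same fit. The step from TR to RP had 863 genes called (3.11%), 650 higher (2.34%) and 213 lower (0.766%). The step from RP to RH had 1497 (5.39%), 1014 higher (3.65%) and 483 lower (1.74%). Of the 2065 genes called higher over the whole interval, 1341 had over 50% of their difference after RP and 724 before it, with medians of 0.95 and 0.64 for the later and the earlier step. Of the 1367 called lower, 911 had most of their difference after RP and 456 before it, with medians of -0.77 and -0.59. The RP mean lay between the other two in 1912 of the genes called higher and in 1294 of those called lower.

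**Figure D4:**
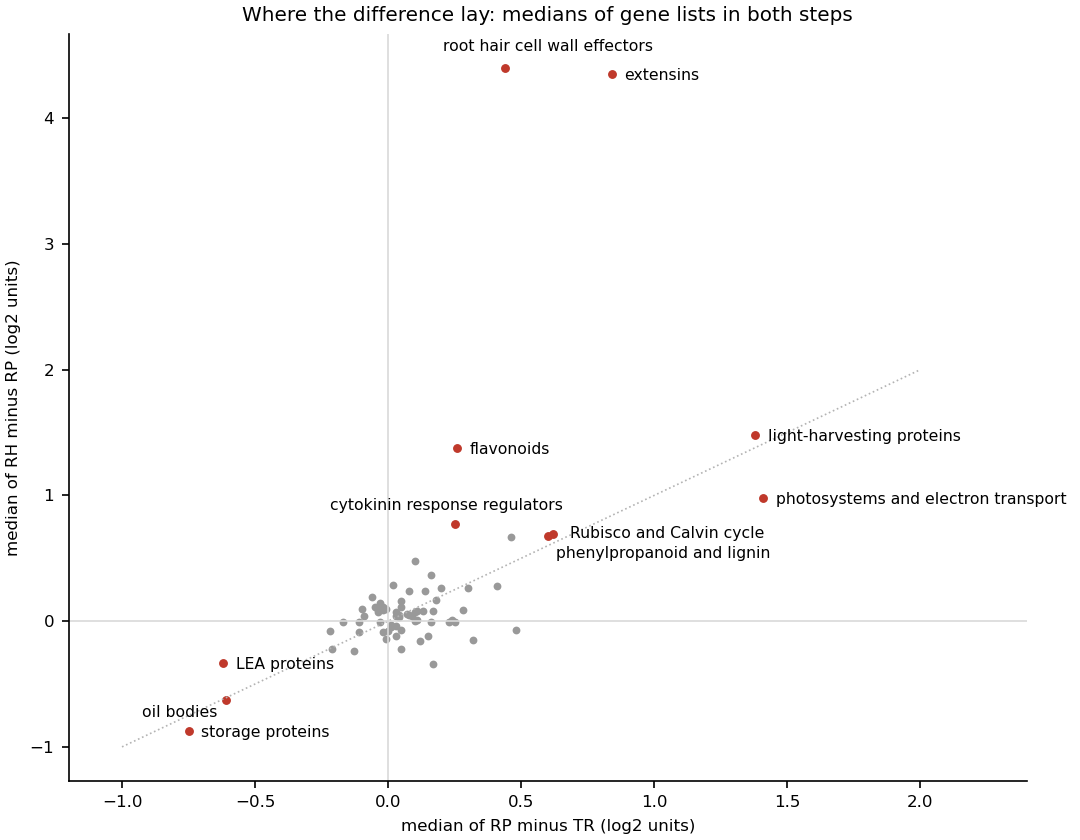
Median difference of each gene list and family between TR and RP (horizontal axis) and between RP and RH (vertical axis), both in log2 units. Points stand for lists, those named in red, and the dotted line marks equal medians in both steps. Root hair effectors and extensins lie at 4.4 and 4.35 on the vertical axis, and light-harvesting proteins near the line at 1.38 and 1.48.

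Some genes departed from a straight course. Against the mean of TR and RH, 319 genes departed at RP (1.15%), of which 142 were high (0.511%) and 177 were low (0.637%). A test against a fold of 1.5 left 60 high and 97 low. Among the 142 high and 177 low genes, 30 and 6 differed by less than 0.5 between RH and TR, so that the net comparison passes them over. The 8 highest included RTM1 (AT1G05760) and RTM2 (AT5G04890), both phloem genes that restrict the spread of a potyvirus. RTM1 had 5.19, 5.74 and 5.13 at TR, 7.22, 7.43 and 7.66 at RP and 5.14, 5.37 and 5.27 at RH, a departure of 2.13 ± 0.16 (adjusted p = 3e-08). For RTM2 the values were 5.05, 5.05 and 5.2 at TR, 7.11, 6.74 and 6.81 at RP and 5.21, 5.45 and 5.11 at RH. The RP arrays lay above all others for both, which their selection as high at RP favours. MYB46 (AT5G12870), a master switch of secondary walls in xylem, was at 4.62, 4.59 and 4.77 at RP, with a departure of 1.39 ± 0.15 (adjusted p = 2.9e-06). PLDALPHA3 (AT5G25370), a phospholipase D gene, departed most, by 2.16 ± 0.17 (adjusted p = 7.2e-08). MYB46 and PLDALPHA3 were near the floor at both TR and RH. MYB46 averaged 3.13 and 3.4 there, and PLDALPHA3 3.39 and 3.04. The floor thus limits both their net differences and the size of their departures. Outside this selection, the cellulose synthase gene of secondary walls CESA4 (AT5G44030) averaged 3.41 at TR, 4.97 at RP and 4.42 at RH.

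In the light signalling and clock list 2 of 40 genes were called low at RP, beside the 0.637% of all genes, and in the brassinosteroid list none of 14 was. Of the 6 low genes with a small net difference, ELF4 (AT2G40080), of the evening complex of the clock, had 10.1, 10.04 and 9.9 at TR, 9.18, 8.62 and 9.02 at RP and 9.99, 10.04 and 9.92 at RH (-1.06 ± 0.13, adjusted p = 1.4e-05). DFL1 (AT5G54510), which conjugates auxin to amino acids, departed by -1.27 ± 0.15 (adjusted p = 1.7e-05) and BEE2 (AT4G36540), a brassinosteroid-responsive factor, by -1.16 ± 0.17 (adjusted p = 0.00015). PHS2 (AT3G46970), a cytosolic starch phosphorylase gene, was at 6.84, 6.92 and 7.19 at RP. These lay below all TR and RH arrays, which its selection as low at RP favours. The labels give no clock time of harvest, and its part in these values was not tested.

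**Figure D5:**
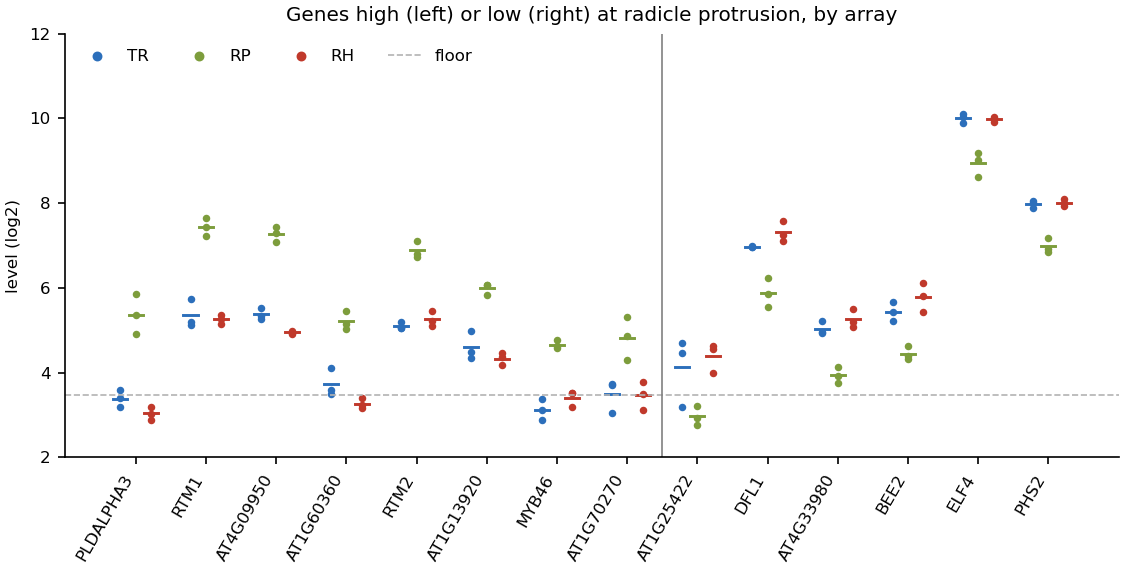
Levels (log2) on each of the 3 arrays of TR, RP and RH for the 8 highest genes (left of the line) and the 6 low genes (right of it) at RP among those that differ by less than 0.5 between RH and TR. Points are arrays, short lines their means and the dashed line is the floor of 3.47. RTM1 and RTM2 lie near 7 at RP and near 5 at TR and RH.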

How the data were processed

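The authors deposited 1 table of log2 expression values per probe set for 21 arrays, made with RMA (background correction, quantile normalization and summarising of probes) per the submitters' processing notes. The table held 35986 probe sets with values between 1.49 and 12.85. For version and annotation nothing is given in the sources used here. As for RNA, the labels' protocols state that 50 ng of RNA was labelled per array.

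Probe sets of a locus were averaged (5818 loci had several), and 215 probe sets whose values were identical to those of another locus were left out, which removed 192 loci. Of 27789 loci, 27175 were in the RefSeq gene table and 10537 had a symbol there. A mean per stage was fitted over all 21 arrays with limma 3.58.1 in R 4.3.3 (lmFit and eBayes, 14 residual and 5.23 prior degrees of freedom), and contrasts were taken for RH minus TR, RP minus TR, RH minus RP and RP minus the mean of TR and RH. P-values were Benjamini-Hochberg adjusted over all loci. A call needed an adjusted p under 0.05 and a difference of at least 1. SE is that of the fit. Simulated data with known differences were used to test the procedure.

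The lists were chosen with earlier results of these data known. The named genes were taken from those that a rule selects: the 15 largest called rises and falls with arrays that do not overlap, in each list the 3 largest called rises and falls and the 2 largest differences not called, in each family the 2 largest of each direction, the largest departures at RP, and the loci with the highest signal. The other named genes, and the groups by role within the root hair and cell cycle lists, were chosen after their values were seen. One list member that had entered through a shared name (photosystems) was removed after values were seen. A gene that the rule takes is not reported here. Alternatives were further normalization or centring, a filter on dim loci, other variance priors, array weights, 1 probe set per locus, other thresholds, the 6 arrays alone, a replicate block, and leaving out each replicate.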

Additional observations from a re-analysis of the deposited data

How the results depend on the processing

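The counts of genes higher and lower at RH, 2065 and 1367, stayed within 1.5 times under every alternative except the adjusted p alone, which gave 5208 and 6370. Leaving out 1 replicate at a time gave 2026 to 2123 higher and 1286 to 1439 lower. For departures at RP, 142 high and 177 low, leaving out 1 replicate gave 119 to 172 and 157 to 196, a test against a fold of 1.5 gave 60 and 97, and the adjusted p alone gave 640 and 672. The median over all genes lay between -0.06 and 0 under the alternatives. Of the 3432 calls, between 93.4% (further quantile normalization) and 100% were kept under the alternatives that changed neither threshold nor replicates, 94.3% to 96.9% without 1 RH or TR replicate, and 88.4% in the test against a fold of 1.5. None changed sign in any of these. Deviations from stage means correlated between -0.328 and 0.113 for same-numbered arrays of TR, RP and RH. For differently numbered arrays they correlated between -0.397 and 0.373. With 3 arrays a stage these values cannot decide whether arrays of different stages shared a batch. A fit with the replicate number as a block gave 2064 genes higher, 1366 lower, 142 high and 178 low at RP. Of 155 called genes named in the text, 150 stayed called under every alternative except the changes of threshold, and LRX3, SUB, SWEET1, ERD14 and CESA4, all close to the threshold, did not. Further quantile normalization left 3 of the 5 Casparian strip calls. Signal near the floor limits the size of rises from TR, and signal near the top of the scale limits differences of the loci with the highest signal.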
